A study of Heliconius melpomene malleti and Heliconius melpomene plesseni with 96 samples.

Results

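The comparison described here is day 7 against day 5 of the pupal proximal forewing, the part of the forewing nearest the body, in the butterfly Heliconius melpomene. Its arrays were chosen by their labels for tissue and day in both races, and 11 of the 96 arrays of the study entered it. Day 5 was measured in 3 malleti arrays (replicates 17, 63 and 85) and 3 plesseni arrays (replicates 18, 62 and 64). Day 7 was measured in 2 malleti arrays (replicates 91 and 95) and 3 plesseni arrays (replicates 70, 92 and 96). The remaining malleti array labelled as proximal forewing of day 7, replicate 69, was left out because its profile was that of eye. The 2 races are malleti and plesseni, and the whole study covered 4 tissues (proximal forewing, distal forewing, hindwing and eye) on days 1, 3, 5 and 7 with 3 arrays in each of its 32 groups. No treatment and no engineered allele is named for any group. The labels call the replicates independent without further detail, so the p-values measure the spread between these arrays. The sources used here do not say whether sections were taken from the same individuals.

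In a butterfly pupa the wing epidermis differentiates into scale cells, socket cells and undifferentiated epithelial cells. Scale cells extend a flattened bristle, lay down chitinous cuticle with its ridges, and fill with pigment late in the pupal stage, and in Heliconius the arrangement of black, red and yellow or white scales makes the warning pattern that distinguishes the races. The step from day 5 to day 7 falls within the part of wing development in which scales are built. None of the 12832 features on the array carried a gene name, and 0 of them matched the gene table available for this species, so each one is called by its scaffold and the start and end of its gene model. The genome build is not stated in those sources, and no function is assigned to any feature.

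Of the features, 12778 were predicted genes on 2112 scaffolds, 51 were transcribed features of the AC, BD and YB walks and 3 were tiled summaries. Most predicted genes (11581) were measured by 9 probes. Levels are log2 intensities after quantile normalization over the 96 arrays, on which all features had a median of 6.88 and quartiles of 4.55 and 9.47. Before normalization the median intensity ranged from 50.1 to 158 over the 11 arrays and from 22.98 to 376 over the 96. No pair of arrays held identical values. How many arrays were run sets the precision of every value below.

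The label of proximal forewing was checked against the other tissues before any step was read. The mean level of 50 features that separated eye from wing, chosen on the other arrays, lay between 4.63 and 5.56 in the 6 arrays of day 5 and between 4.81 and 5.32 in the 5 arrays of day 7. In the eyes without replicate 67 it lay between 10.25 and 12.21 on day 5 and between 11.85 and 12.39 on day 7. These eye arrays had served to choose the set, so their high level follows from the choice. Replicate 67, labelled as eye of day 7, stood at 4.87, within the range of the proximal forewings of day 7. Replicate 69 stood at 12.33, within the eye range and far outside the wing range. Its rank correlation across features was 0.983 with the mean of the day 7 eyes and 0.870 with that of the day 7 proximal forewings. Of the 98 features called below, 0 were in the eye set.

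**Figure D1:**
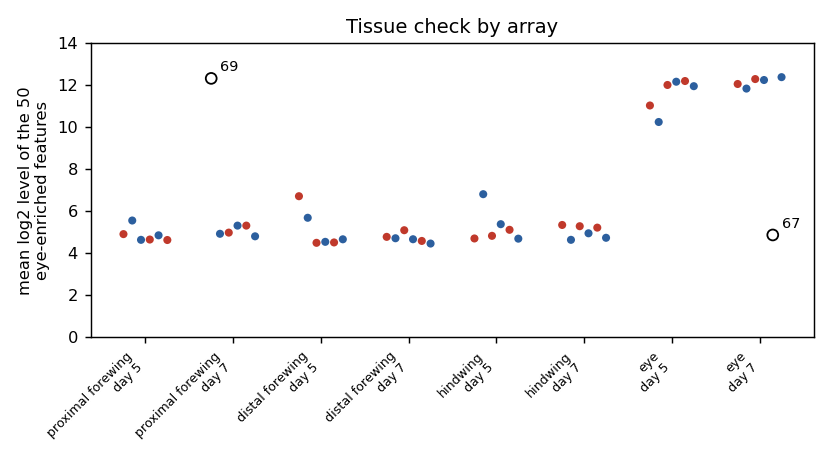
Mean log2 level of the 50 eye-enriched features (vertical axis) in each array of days 5 and 7, by tissue and day (horizontal axis), with malleti in red, plesseni in blue and arrays left out of their labelled group as open circles. The 11 proximal forewing arrays used here lie between 4.63 and 5.56, and replicate 69 lies at 12.33 with the eyes. Replicate 67, labelled as eye of day 7, lies at 4.87 with the wings.

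Proximal and distal forewing were harder to tell apart. A set of 20 features higher proximally on days 1 and 3 had a median of 8.91 in the proximal and 8.95 in the distal arrays of day 5, and of 7.97 and 7.77 on day 7, so it did not separate the sections at these ages. It held 4 of the 98 features called below. A test of proximal against distal forewing over the mean of days 5 and 7, added after the data were seen, called 16 of the 12832 features (0.125%; limma, adjusted p under 0.05), 13 higher (0.101%) and 3 lower (0.0234%) proximally, with 605 at an unadjusted p under 0.05 (4.71%). The largest difference was at HE668843 2797 to 5072, which was 2.70 ± 0.28 log2 units (SE) higher proximally (limma adjusted p = 4.05e-06). Its day 7 levels of 7.85 to 9.04 in the proximal arrays did not overlap those of 4.60 to 4.95 in the distal arrays, whereas on day 5 the ranges of 5.49 to 7.99 and 4.12 to 5.74 overlapped. Of the 13 features higher proximally, 4 lay on scaffold HE670742 between 105967 and 349786, with differences from 1.04 to 2.11. At each of these 4 the proximal and distal ranges overlapped on day 5 and not on day 7. Their mean levels lay under the median of all features in both sections. Whether such a grouping exceeds that on other scaffolds was not tested. The count fell to 6 after centring on array medians and to 3 on the deposited scale, and it was 10 without replicate 91 and 33 without replicate 62.

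After quantile normalization, more features were called as falls than as rises from day 5 to day 7 in the proximal forewing. Of the 12832 features, 98 were called at an adjusted p under 0.05 with race as a factor (0.764%), of which 18 rose (0.14%) and 80 fell (0.623%). All 98 changed at least 2-fold, whereas the median difference over all features was 0.02 log2 units and their median SE was 0.36. At an unadjusted p under 0.05 there were 1346 features (10.5%). The fold change of those that rose ran from 2.69 to 46.1, with a median of 2.35 log2 units. Those that fell had folds from 2.28 to 108, and their median of -2.87 log2 units was a 7.29-fold fall. A change of at least 16-fold was seen in 2 features that rose and in 22 that fell. In bulk tissue, fewer cells of a type and less RNA per cell cannot be told apart.

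The groups separated for most of these features. The levels of the 6 arrays of day 5 and the 5 of day 7 did not overlap for 298 of all features (2.32%), of which 110 were higher (0.857%) and 188 lower (1.47%) on day 7. Among the called features, 18 of the 18 that rose and 73 of the 80 that fell did not overlap, a separation that the call itself favours. The median level of the fallen features went from 9.92 on day 5 to 6.67 on day 7, from above the upper quartile of all features to just under their median. For 43 of the 80 the day 7 mean lay under the median of all features, against 6 on day 5. The risen features went from a median of 6.99 to 10.23, and 9 of the 18 lay under the median of all features on day 5 and 3 on day 7. The days agreed unequally among themselves: correlations across features were 0.840 to 0.952 between arrays of day 5, 0.956 to 0.969 between arrays of day 7 and 0.858 to 0.950 between the days.

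**Figure D2:**
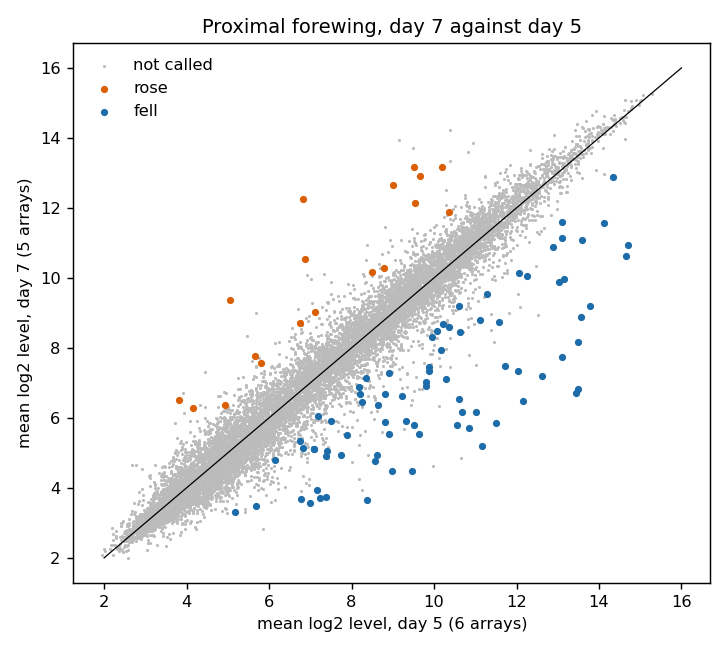
Mean log2 level of each of the 12832 features on day 5 (6 arrays, horizontal axis) and day 7 (5 arrays, vertical axis) in the proximal forewing, with the 18 features that rose in orange, the 80 that fell in blue, the others in grey and the line of equal levels in black. Blue points reach far below the line at high day 5 levels, and orange points are fewer.

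The number of calls depended on single arrays. Leaving out replicate 17, 70, 85, 91, 92, 95 or 96 lowered the count of 98 to 55, 53, 58, 42, 44, 55 and 49, and without replicate 62 it was 122. All 98 features kept their direction in each of these fits, which the separation of the days fixes for those without overlap. On the deposited scale without normalization 32 features rose and 37 fell, and there the median of all features was itself 0.28 higher on day 7.

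Among features of 9 probes, HE670855 72168 to 73564 fell furthest. Its day 5 levels were 13.70, 12.68 and 13.27 in malleti replicates 17, 63 and 85 and 13.55, 13.52 and 13.92 in plesseni replicates 18, 62 and 64. Its day 7 levels were 6.80 and 6.84 in malleti replicates 91 and 95 and 5.92, 7.02 and 6.92 in plesseni replicates 70, 92 and 96. Each day 5 array was among the bright end of the array's range and each day 7 array was near the median of all features, with no overlap. The difference was -6.76 ± 0.30 log2 units (SE), a 108-fold fall (limma adjusted p = 4.87e-07), and it passed the threshold in all 26 alternative fits. The day means before that were 14.18 on day 1 and 14.002 on day 3, so this feature was high on days 1, 3 and 5 and low on day 7.

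HE671115 223830 to 225883 fell nearly as far but with more spread. Its day 5 levels were 14.64, 12.71 and 14.72 in malleti replicates 17, 63 and 85 and 13.06, 14.23 and 11.62 in plesseni replicates 18, 62 and 64. On day 7 it stood at 5.81 and 5.59 in malleti replicates 91 and 95 and at 10.77, 6.36 and 5.54 in plesseni replicates 70, 92 and 96. Replicate 70 lay more than 4 log2 units above the other day 7 arrays and under every day 5 array. The difference was -6.71 ± 0.94 (SE), a 104-fold fall (limma adjusted p = 0.00621). Its course differed from that of the preceding feature: the day means were 6.63, 13.41, 13.50 and 6.81 on days 1, 3, 5 and 7, so it was high on days 3 and 5 and low on days 1 and 7.

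Of the features that rose, HE671037 60439 to 65135 changed most under the same conditions. Its day 5 levels were 5.03, 6.28 and 5.12 in malleti replicates 17, 63 and 85 and 3.94, 5.13 and 4.78 in plesseni replicates 18, 62 and 64. Its day 7 levels were 8.28 and 10.59 in malleti replicates 91 and 95 and 6.94, 10.59 and 10.45 in plesseni replicates 70, 92 and 96. Every day 5 array was under the median of all features and every day 7 array was above it, with replicate 70 closest to day 5. The difference was 4.38 ± 0.67 log2 units (SE), a 20.8-fold rise (limma adjusted p = 0.0107).

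HE671613 99638 to 103693 was already above the median of all features on day 5. Its day 5 levels were 9.28, 10.92 and 9.50 in malleti replicates 17, 63 and 85 and 8.82, 8.25 and 7.28 in plesseni replicates 18, 62 and 64. Its day 7 levels were 12.37 and 13.35 in malleti replicates 91 and 95 and 11.52, 12.77 and 13.22 in plesseni replicates 70, 92 and 96. The days did not overlap, and replicate 63 of day 5 and replicate 70 of day 7 were the arrays closest to each other. The rise was 3.75 ± 0.48 log2 units (SE), or 13.5-fold (limma adjusted p = 0.00356).

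**Figure D3:**
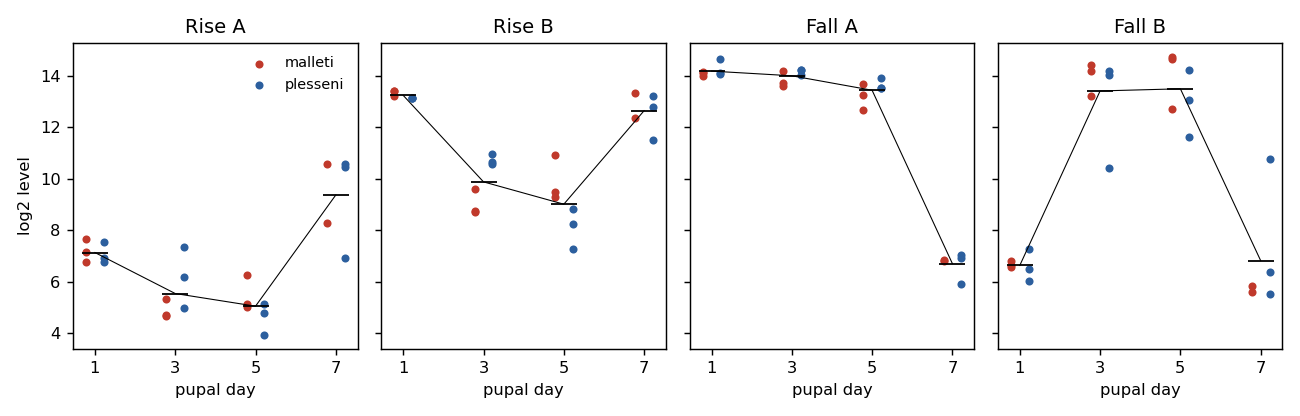
Log2 level (vertical axis) in each proximal forewing array on pupal days 1, 3, 5 and 7 (horizontal axis), malleti in red and plesseni in blue, for HE671037 60439 to 65135 (Rise A), HE671613 99638 to 103693 (Rise B), HE670855 72168 to 73564 (Fall A) and HE671115 223830 to 225883 (Fall B). Days 5 and 7 do not overlap in any panel, and replicate 70 is the plesseni point at 10.77 on day 7 in Fall B.

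Replicates 63 and 70 stood nearest to the other day more often than their companions. Among the arrays of day 5, replicate 63 was the closest to day 7 for 9 of the 18 features that rose and 31 of the 80 that fell. On a scale from 0 at the day 5 mean to 1 at the day 7 mean its median position over the 98 features was 0.17, while the other day 5 arrays lay between -0.12 and 0.02. Replicate 70 was the day 7 array closest to day 5 for 8 of the 18 and 23 of the 80, and its median position was 0.97. It stood out little among the falls, where replicates 96 and 92 were the closest for 20 and 17 of the 80. The median positions of the other day 7 arrays lay between 0.98 and 1.07. Replicates 63 and 70 were hybridised on slide 8, together with replicate 18 of day 5. Replicate 18 did not stand toward day 7: its median position was -0.07, and it was the closest for 1 of the 18 and 9 of the 80. The part of the slide in these positions was not tested. Within slide 8 the step had the same direction for all 98 features, with medians of 1.75 for those that rose and -2.67 for those that fell.

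The other slides that held both days were slide 2 and slide 3. For the features whose days do not overlap, the direction within a slide or a gain is fixed by that separation. The slides also mixed race with day: slide 2 set malleti day 5 against plesseni day 7, slide 3 the reverse, and slide 8 both races of day 5 against plesseni day 7. Within slide 3 all 98 features kept their direction, and within slide 2 all 18 that rose and 79 of the 80 that fell did. HE671115 223830 to 225883 differed by -8.27 within slide 2, -5.81 within slide 3 and -2.12 within slide 8, whereas HE670855 72168 to 73564 differed by -6.68, -7.12 and -7.19. HE671037 60439 to 65135 differed by 5.56, 3.503 and 1.83 on the same slides, and HE671613 99638 to 103693 by 3.49, 5.09 and 1.65. Slide 8 thus gave the smallest step for 3 of these 4 features. The arrays had been scanned at 2 detector gains, and within each gain all 98 features kept their direction. In a fit to the 8 arrays of gain 1, HE671037 60439 to 65135, HE671613 99638 to 103693 and HE671115 223830 to 225883 had limma adjusted p-values of 0.135, 0.0801 and 0.132, and 25 features were called. Their differences in that fit were 4.09, 3.43 and -5.87.

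The 4 days together showed different histories for the risen and the fallen features. The median level of the 18 that rose was 8.13 on day 1, 6.01 on day 3, 6.99 on day 5 and 10.23 on day 7. The median of the 80 that fell was 7.04, 7.15, 9.92 and 6.67 on the same days. The former were thus lowest on day 3, and the latter were highest on day 5. These medians follow from the choice of the features at days 5 and 7, and only the values of days 1 and 3 are independent of it.

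**Figure D4:**
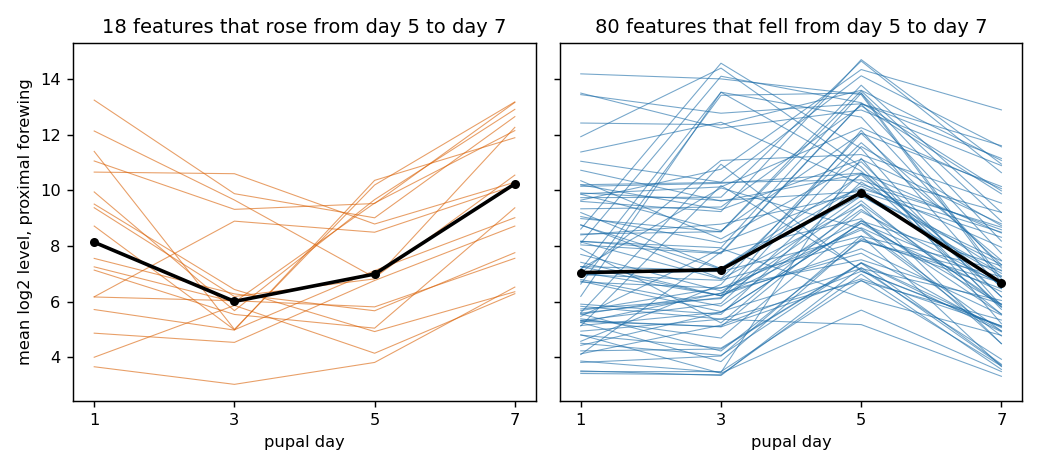
Mean log2 level in the proximal forewing (vertical axis) on pupal days 1, 3, 5 and 7 (horizontal axis) for each of the 18 features that rose (left) and the 80 that fell (right) from day 5 to day 7, with the median in black. The median of the risen features goes from 8.13 to 6.01 between days 1 and 3, and that of the fallen features from 7.04 to 7.15.

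The step from day 1 to day 3 was measured on 12 other arrays. It called 2348 of the 12832 features (18.3%), of which 1123 rose (8.75%) and 1225 fell (9.55%). Of the 18 features that rose from day 5 to day 7, 11 had fallen and 2 had risen in that early step, and 16 of the 18 stood below 0 (51.8% of all features did), with a median early difference of -1.43. Of the 80 that later fell, 15 had risen and 10 had fallen, and 37 stood above 0 (48.2% of all features), with a median of -0.15. The 18 had 12 early falls and 1 early rise both after centring on array medians and on the deposited scale. The medians of all features in the early step were -0.20 and -0.38 on those scales, and their rises and falls were 1210 and 2377 after centring and 644 and 2828 on the deposited scale.

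The named features differed in their courses. HE671613 99638 to 103693 fell by 3.36 from day 1 to day 3 (limma adjusted p = 1.62e-05), and its day means were 13.24, 9.88, 9.01 and 12.65, so that day 7 came near to day 1. HE671037 60439 to 65135 fell by 1.59 (limma adjusted p = 0.0142), with day means of 7.13, 5.54, 5.05 and 9.37. HE671115 223830 to 225883 had risen by 6.78 (limma adjusted p = 3.71e-06), and HE670855 72168 to 73564 had differed by -0.18 (limma adjusted p = 0.545).

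The 98 features lay on 83 scaffolds, and 73 of these scaffolds held a single one. The other 10 held 25 of the features, in 8 cases with 1 direction and in 2 with both. Of 6 runs of called features that followed each other on a scaffold in the same direction, only the run on HE671450 held 3. The scaffold groups other than this run were singled out after their values were seen.

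The run on HE671450 spanned 48860 to 64946 and held 3 neighbours that fell together. At 48860 to 51990 the levels ran from 8.67 to 13.42 on day 5 and from 5.00 to 7.72 on day 7. At 57098 to 59615 they ran from 7.80 to 13.03 and from 4.76 to 7.28, and at 61477 to 64946 from 6.64 to 12.11 and from 3.83 to 5.11. The days did not overlap at any of the 3, although day 5 itself spread over more than 4 log2 units. The differences were -4.88 ± 0.90, -4.73 ± 0.86 and -4.90 ± 0.85 (SE), with limma adjusted p-values of 0.0283, 0.0283 and 0.0222. Similar falls of -6.32, -5.57 and -5.73 were called in the distal forewing and of -4.34, -4.33 and -4.27 in the hindwing.

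Scaffold HE671115 held 4 fallen features between 179344 and 386565, among 17 features in that range. At 179344 to 180141 the levels ran from 7.37 to 13.57 on day 5 and from 5.52 to 6.09 on day 7. At 185686 to 189722 they ran from 11.16 to 13.30 and from 5.57 to 10.41, and at 385231 to 386565 from 12.48 to 14.25 and from 7.59 to 10.83. None of these ranges overlapped between the days. The differences were -5.69 ± 1.00, -5.48 ± 0.74 and -4.72 ± 0.56 (SE; limma adjusted p = 0.0236, 0.00504 and 0.00222), beside the -6.71 of 223830 to 225883. Replicate 70 was the highest array of day 7 at the 3 features other than 179344 to 180141, where it was the lowest.

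The neighbours in this range shared an earlier rise. From day 1 to day 3, 12 of the 17 features rose, against 8.75% of all features, and 0 fell. The largest of these rises was 7.99 ± 0.26 log2 units (SE; limma adjusted p = 1.85e-09) at 268900 to 269670. The levels then parted. At 268900 to 269670 the day means were 6.96, 14.95, 8.20 and 5.51 on days 1, 3, 5 and 7, and at 295836 to 298596 they were 4.55, 11.70, 6.91 and 4.14. At 179344 to 180141 they were 8.61, 14.57, 11.50 and 5.84, and at 185686 to 189722 they were 7.15, 13.52, 12.63 and 7.21. The day 5 means at 185686 to 189722 and 223830 to 225883 thus lay near those of day 3, and the means at 268900 to 269670 and 295836 to 298596 lay well under them. At 179344 to 180141 the arrays of day 5 were spread, with replicate 63 at 7.37 and replicate 62 at 9.70, under the day 3 range of 13.98 to 14.95. At 385231 to 386565 the day means were 8.98, 8.51, 13.57 and 8.89, so this fallen feature was high on day 5 alone. A further neighbour, 207563 to 212194, differed by -5.66 ± 1.21 (SE) and missed the threshold (limma adjusted p = 0.0611).

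Scaffold HE669253 held 3 risen features among 6 between 13633 and 42777, including the largest rise of the comparison. At 13633 to 14161, which only 3 probes measured, the levels ran from 5.32 to 10.03 on day 5 and from 10.05 to 13.003 on day 7. The 2 ends nearly met: the highest day 5 array was replicate 63 and the lowest day 7 array was replicate 70. The rise was 5.53 ± 0.83 (SE), or 46.1-fold (limma adjusted p = 0.00966). At 17954 to 18456, with 2 probes, the rise was 3.66 ± 0.61 (limma adjusted p = 0.0168), and at 42024 to 42777, with 9 probes, it was 3.28 ± 0.63 (limma adjusted p = 0.0371). All 3 had fallen from day 1 to day 3, with early differences of -3.19, -1.74 and -4.27. The feature 38815 to 42326, which overlaps the last, had fallen by 2.57 in the early step and differed by 1.78 from day 5 to day 7 without passing (limma adjusted p = 0.196).

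On HE671081, 2 neighbouring features fell from among the highest levels of the array. At 3944 to 9325 the levels ran from 14.09 to 15.11 on day 5 and from 9.88 to 11.43 on day 7. The day means of 9.74, 9.75, 14.64 and 10.63 were highest on day 5, and each lay above the upper quartile of all features. The difference was -4.02 ± 0.34 (SE; limma adjusted p = 3.01e-04). At 11472 to 12286 the levels ran from 11.75 to 13.68 and from 9.27 to 10.49, the day means were 9.33, 9.40, 13.04 and 9.87, and the difference was -3.18 ± 0.40 (SE; limma adjusted p = 0.00327). Neither feature passed in the step from day 1 to day 3.

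Whether the step differed between the races was tested as an interaction. It called 0 of 12832 features (limma, adjusted p under 0.05, 0%), with 300 at an unadjusted p under 0.05 (2.34%) and a smallest adjusted p of 0.562. In the same fit to the 11 arrays of both races, the malleti step called 9 features (0.0701%), of which 1 rose (0.00779%) and 8 fell (0.0623%). The plesseni step called 31 (0.242%), of which 4 rose (0.0312%) and 27 fell (0.21%). Malleti had 2 arrays of day 7 and plesseni 3. The spread was pooled over both races, so arrays of either race bear on both counts. Both counts rested on single arrays. The malleti count ran from 1 without replicate 85 or 95 to 22 without replicate 63, it was also moved over 1.5 times without replicate 17, 62, 64, 91 or 92, and on the deposited scale it was 22 (9 rises and 13 falls). The plesseni count ran from 4 without replicate 96 to 201 without replicate 64, where 134 rose and 67 fell, and it was also moved over 1.5 times without replicate 18, 62, 70, 85, 91, 92 or 95. All 98 features had the same direction in both races, whose arrays had chosen them. The median step of those that rose was 2.77 in malleti and 2.38 in plesseni, and that of those that fell was -2.46 and -3.09.

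The size of a race difference was bounded more closely for some features than for others. The median SE of the difference between the steps was 0.84 over the 98 features. For HE670855 72168 to 73564 the plesseni minus the malleti step was -0.65, with a 95% interval from -1.98 to 0.69. For HE671115 223830 to 225883 the difference was 2.91, with an interval from -1.003 to 6.82, the highest day 7 array being plesseni replicate 70. HE671037 60439 to 65135 had a difference of 0.75 (-2.31 to 3.82) and HE671613 99638 to 103693 one of 1.42 (-0.59 to 3.44). The intervals of the last 3 of these features thus reached beyond 3 log2 units, and that of HE670855 72168 to 73564 was the narrowest of the 4.

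The same step in the other tissues was measured on other arrays. In the distal forewing 514 features were called (4.01%), of which 226 rose (1.76%) and 288 fell (2.24%). In the hindwing 206 were called (1.61%), of which 58 rose (0.452%) and 148 fell (1.15%). In the eye, without replicate 67, which is labelled as eye of day 7 but had a wing profile, 16 were called (0.125%), and all of them fell. The split of the distal count moved with the scaling, to 81 rises and 169 falls after centring and 531 rises and 79 falls on the deposited scale, where the median of all features was 0.74 higher on day 7. The hindwing split moved to 9 rises and 71 falls on the deposited scale, where that median was -0.48. Without replicate 14 the hindwing gave 721 calls, 359 rises and 362 falls. The mean level of the eye set in that array was 6.81, the highest among the day 5 hindwings, whose median was 4.97, and its part in the count was not tested.

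Of the 18 features that rose proximally, 15 also rose in the distal forewing (83.3% of the proximal list and 6.64% of the distal one) and 8 in the hindwing (44.4% and 13.8%). Of the 80 that fell, 69 also fell in the distal forewing (86.25% and 23.96%) and 56 in the hindwing (70% and 37.8%). All 18 risen features stood above 0 in the distal forewing (50.7% of all features did) and 17 in the hindwing (54.3%), where the remaining one stood at -0.16. All 80 fallen features stood below 0 in both, against 49.3% of all features distally and 45.7% in the hindwing. On the deposited scale 44 of the 80 were called as falls distally and 5 of the 18 as rises in the hindwing. There 2 of the 80 stood above 0 in the distal forewing, and all 80 stood below the median of all features. In all 3 wing sections together, 8 features rose and 52 fell. The rises of HE671037 60439 to 65135 were 4.38 proximally, 4.43 distally and 3.77 in the hindwing. The falls of HE670855 72168 to 73564 were -6.76, -6.80 and -5.88 in the same order, and those of HE671115 223830 to 225883 were -6.71, -6.85 and -7.78.

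A total of 7 of the 80 fallen features and 3 of the 18 risen ones were called in neither other wing section. The 3 risen ones were HE671060 205432 to 206844, HE671165 15261 to 17601 and HE670710 2105 to 33745, named after their values were seen. Their proximal steps of 1.43 ± 0.22, 1.56 ± 0.31 and 1.76 ± 0.34 (SE) stood beside distal steps of 1.23, 1.54 and 1.10 and hindwing steps of 0.88, 0.63 and 0.94, so the directions were shared. HE670710 2105 to 33745 was also among the 13 features higher proximally than distally. No step was shown to be particular to the proximal forewing. The test of proximal against distal step called 0 features (limma, 0%), with 256 at an unadjusted p under 0.05 (2%) and a smallest adjusted p of 0.472. That of proximal forewing against hindwing also called 0 (0%, limma), with 185 at an unadjusted p under 0.05 (1.44%). The median SE of either difference over the 98 features was 0.65. For HE670855 72168 to 73564 the 95% interval ran from -1.17 to 1.33 against the distal forewing and from -2.09 to 0.41 against the hindwing.

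**Figure D5:**
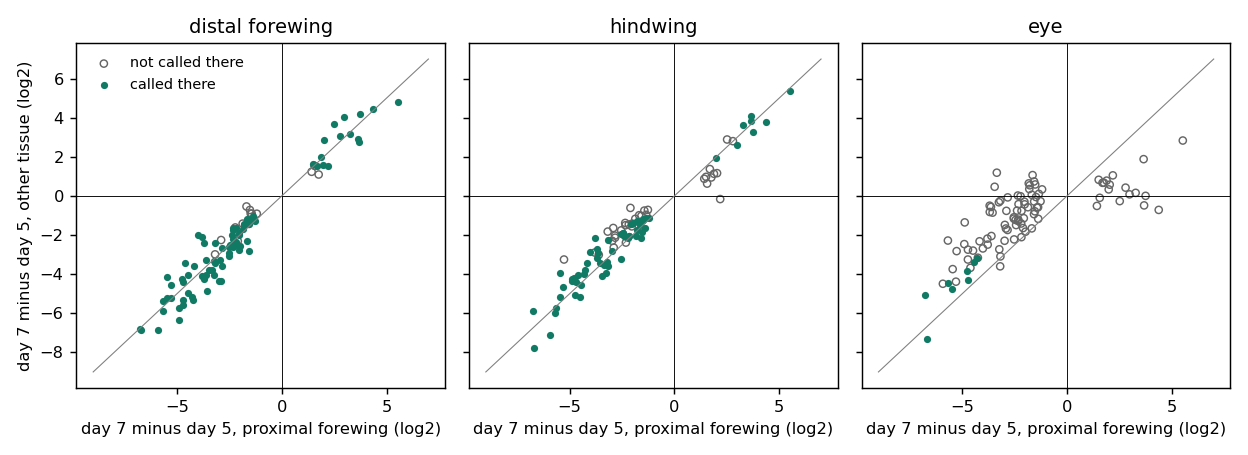
Log2 difference from day 5 to day 7 in the distal forewing, hindwing and eye (vertical axes) against that in the proximal forewing (horizontal axis) for the 98 features called there, with filled points for features also called in the other tissue and a line of equal steps. Distal and hindwing points follow the line, and in the eye 8 of the 80 fallen features and 0 of the 18 risen ones are filled.

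The eye shared the falls in part. Of the 80 fallen features 8 were called as falls in the eye (10% of the proximal list and 50% of the 16 eye calls), and 68 had the same direction (50% of all features), with a median of -1.25. Of the 18 risen features 0 were called (limma), in a comparison with 1199 features at an unadjusted p under 0.05 (9.34%), and 13 had the same direction with a median of 0.38. After centring, 11 of the 18 and 71 of the 80 had the proximal direction, and on the deposited scale 16 and 60 did. The medians of all features in the eye were -0.14 and 0.42 on those scales. Relative to these medians, 11 of the 18 and 69 of the 80 had the proximal direction on either scale. Of the 80, 11 were called as falls in the eye after centring and 3 on the deposited scale. A test of the difference between the proximal and the eye step, added after the data were seen, called 1 feature (0.00779%), with 1231 at an unadjusted p under 0.05 (9.59%). HE670855 72168 to 73564 fell by 5.05 and HE671115 223830 to 225883 by 7.31 in the eye, while HE671037 60439 to 65135 differed by -0.71 and HE671613 99638 to 103693 by 0.005.

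The AC, BD and YB walks share their names with the Ac, B/D and Yb loci of this species, which control forewing band shape, red pattern elements and yellow or white pattern elements. Each of their 51 transcribed features was measured by 3 probes. None of them was called in the step from day 5 to day 7 (limma, adjusted p under 0.05), against 0.764% of all features. At an unadjusted p under 0.05 there were 2 of 16 features for AC, 3 of 22 for BD and 1 of 13 for YB, against 10.5% of all features. Differences ran from -1.16 to 1.03 for AC, from -0.76 to 1.43 for BD and from -1.11 to 0.54 for YB, with medians of 0.01, 0.02 and -0.02. The smallest limma adjusted p-values were 0.253, 0.255 and 0.394. For 0 of the 51 features did the days separate without overlap, against 2.32% of all features. At these shares, a count of 0 among 51 features does not set the walks apart from the other features.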

How the data were processed

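Total RNA of single tissues was labelled with Cy3 and hybridised to 1-colour NimbleGen arrays on 8 slides, per the labels' protocols. The authors deposited 1 linear intensity per feature and array, and RMA is the tool listed in the submitters' processing notes, without a version or settings. Array medians differed widely, so log2 of the deposited intensities was quantile-normalized over the 96 arrays with limma 3.58.1 (R 4.3.3). Each comparison was fitted to its own arrays with day and race as additive factors, or with group means of race and day (of section, race and day for sections) where steps were compared, and tested with limma's eBayes and Benjamini-Hochberg adjustment over all 12832 features at 0.05. Slide and detector gain were read from the array file names. The proximal against distal level and the proximal forewing against eye step were tests added after the data were seen.

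The features and lists were chosen with earlier results of these data known. With no gene names, the named features were at most 2 rises and 2 falls, those with the largest change among called features of 9 probes that did not overlap between the days, together with runs of 3 or more called neighbours. Others were chosen after their values were seen. On simulated data of 12832 features, the fit of day 7 against day 5 recovered 9% of changes of 2-fold and 60% of those of 4-fold, the proximal against distal step 5% and 42%, and race by day 0% of either. Alternatives were log2 of the intensities as deposited, array-median centring, a filter on the dimmest 25% of features, eBayes with its trend and robust settings, array weights, slide and gain terms, other sets of arrays in the fit, only features of 9 probes, and leaving out each replicate.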

Additional observations from a re-analysis of the deposited data

Results flagged for a closer look

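HE671648 16804 to 27385 differed between proximal forewing and eye in the step from day 5 to day 7. Its proximal levels were 7.65 to 10.22 on day 5 (mean 9.31 ± 0.88, SD, n = 6) and 5.23 to 6.59 on day 7 (5.91 ± 0.51, SD, n = 5), without overlap. In the eye they were 7.04 to 11.76 on day 5 (10.05 ± 1.97, SD, n = 6) and 10.37 to 11.83 on day 7 (11.24 ± 0.54, SD, n = 5), which overlap. The step was -3.35 ± 0.41 (SE) in the proximal forewing (limma adjusted p = 0.00269), -3.79 in the distal forewing, -3.52 in the hindwing and 1.19 ± 0.85 (SE) in the eye (limma adjusted p = 0.509). The difference between the proximal and the eye step was -4.65 ± 0.81 (SE; limma adjusted p = 0.0238), the only one called of 12832 (0.00779%), with 1231 at an unadjusted p under 0.05. It kept its sign in all 50 alternative fits, from -5.05 to -3.97, and passed in 41. Those 50 include fits without 1 of the 12 distal or 12 hindwing arrays, which cannot change the difference itself, only its SE. The difference did not pass on the deposited scale (limma adjusted p = 0.99954) or without replicate 17, 23, 45, 64, 68, 91, 92 or 96 (limma adjusted p from 0.0502 to 0.172). All of these replicates are proximal forewing or eye arrays. Dixon's test for a single outlying array was not run, and no group of race, tissue and day had more than 3 arrays.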

How the results depend on the processing

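The count of 98 for day 7 against day 5 changed with the model, the scaling and the arrays in the fit. It was 206 with 32 group means over 95 arrays (73 of the 98 shared), 176 with slide as a block in addition, 254 with all 4 days of the proximal forewing, 260 with array weights, 25 with only arrays of gain 1 and, in an alternative chosen after seeing the data, 502 with 32 group means over the 84 arrays that do not stand apart (94 shared). That fit left out 12 arrays, namely replicates 67 and 69 and those with a median log2 intensity under 5.5 (replicates 5, 8, 16, 21, 32, 34, 42, 55, 60 and 73). The count was lower after centring on array medians, at 73 (71 of the 98 shared), and with slide as a random block, at 75 (75 shared). On the deposited scale it was 69, and only 47 of the 98 were shared. Every one of the 98 that was tested kept its direction in all 26 alternatives, which reuse arrays that had chosen these features. Without single replicates the count ranged from 42 to 122. With replicate 69 included, 99 features were called, 77 of them shared. The race by day count of 0 became 2 with array weights and 1 on the deposited scale, and 0 to 1 without single replicates. Both tests of the step against other wing sections called 0 without any single replicate. Leaving out an array of the section not compared cannot change the difference itself, only its SE. Centring on array medians gave 250 for the distal forewing and 85 for the hindwing, and the deposited scale gave 80 for the hindwing; without single replicates they ranged from 249 to 596 and from 89 to 721, moving over 1.5 times without replicate 19, 20, 71, 72, 93 or 94 and without replicate 13, 14, 40, 43, 44, 48, 65 or 66. Added after seeing the data, centring gave 3587 for day 3 against day 1 (1815 to 2646 without single replicates), and the deposited scale gave 10 for the eye (7 to 30, moving over 1.5 times without replicate 23, 37, 38, 45, 68, 89 or 90). The proximal forewing against eye count of 1 became 2 after centring, 0 on the deposited scale, 2 without the dimmest 25% of features and 0 to 28 without single replicates; it was 28 without replicate 38. The causes were not tested.

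No paired analysis was possible because each replicate number occurs once in the series. In simulated data of the same size, 9% of 2-fold changes were recovered, so a feature that was not called is not shown to be unchanged.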
